A study of Homo sapiens with 4 samples.

Results

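The 4 HOX clusters of SH-SY5Y cells were examined for H3K27me3, a histone mark of Polycomb repression, and for CHD5, a nucleosome-remodelling chromodomain helicase. Each cluster was taken with 50 kb added on either side, in hg19 coordinates: HOXA on chromosome 7 from 27132000 to 27250000, HOXB on chromosome 17 from 46606000 to 46807000, HOXC on chromosome 12 from 54332000 to 54450000, and HOXD on chromosome 2 from 176957000 to 177056000. Every listed region sharing at least 1 bp with these windows was kept. This gave 33 of 32543 CHD5 peaks (3 in the HOXA window, 2 in HOXB, 15 in HOXC and 13 in HOXD) and 613 of 257073 H3K27me3 regions (132, 298, 139 and 44).

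SH-SY5Y is a human neuroblastoma line that takes on neuron-like features in retinoic acid, and all 4 libraries of the study came from cells given 10 uM retinoic acid for 8 days. The CHD5 library was a streptavidin pull-down from cells expressing FBio-CHD5, and the H3K27me3 library was an antibody precipitation from cells expressing the same construct. A streptavidin pull-down from FBio-Ctrl cells and an input library complete the series, and no region list of theirs was used here. CHD5 was thus followed as an introduced tagged protein, and the sources used here do not say whether the cells were 1 clone. Each group had 1 library, so no value has a replicate error and no difference was tested. No untreated cells were analysed here, so the values describe treated cells and no change upon treatment. The lists hold no read counts, the depth of both libraries is unknown, and region lists cannot be used to check the cell line against expressed markers.

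HOX genes encode homeodomain transcription factors that give cells their position along the body axis. They lie in each cluster in the order of their paralog numbers, and low-numbered genes are in general active earlier and farther forward in the embryo than high-numbered ones. Retinoic acid is a classical inducer of HOX genes, acting from the low-numbered end, while Polycomb complexes hold silent clusters under H3K27me3.

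The clusters hold 38 listed member genes. By their order in RefSeq, HOXA runs from HOXA2 through HOXA3, HOXA4, HOXA5, HOXA6, HOXA7, HOXA9, HOXA10 and HOXA11 to HOXA13, with 10 listed genes. HOXB, also with 10, runs from HOXB1 through HOXB2, HOXB3, HOXB4, HOXB5, HOXB6, HOXB7, HOXB8 and HOXB9 to HOXB13. HOXC has 9, from HOXC4 through HOXC5, HOXC6, HOXC8, HOXC9, HOXC10, HOXC11 and HOXC12 to HOXC13. HOXD has 9 as well, from HOXD1 through HOXD3, HOXD4, HOXD8, HOXD9, HOXD10, HOXD11 and HOXD12 to HOXD13. HOXC lacks genes of paralog groups 1 to 3, and over all clusters 16 of the 38 genes belong to the posterior groups 9 to 13. The low-numbered end lies at the lower coordinate in HOXA and HOXB and at the higher coordinate in HOXC and HOXD. The gene table belongs to GRCh38.p14 and gave only names and order, and the orientation of the clusters was taken to be the same in hg19. Positions below are therefore stated as distances from the low-numbered end of a cluster, and no single gene was placed under a peak or a region.

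HOXD had H3K27me3 regions listed at the HOXD13 end of the cluster and none over the part next to HOXD1. The promoters of these outermost genes are therefore shown as an example of the DNA at both ends. Each run is the 250 bases before the RefSeq start on the plus strand, 5′ to 3′, with CpG dinucleotides in capitals. Their GRCh38.p14 positions, which are not comparable with the hg19 positions of the lists, are chr2:176092471-176092720 for HOXD13 and chr2:176188418-176188667 for HOXD1.
HOXD13: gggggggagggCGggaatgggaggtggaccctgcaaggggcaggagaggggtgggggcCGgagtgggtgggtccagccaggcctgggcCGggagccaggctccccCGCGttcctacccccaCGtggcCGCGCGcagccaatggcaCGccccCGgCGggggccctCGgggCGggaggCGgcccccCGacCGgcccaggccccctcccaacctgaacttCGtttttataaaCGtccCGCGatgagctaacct
HOXD1: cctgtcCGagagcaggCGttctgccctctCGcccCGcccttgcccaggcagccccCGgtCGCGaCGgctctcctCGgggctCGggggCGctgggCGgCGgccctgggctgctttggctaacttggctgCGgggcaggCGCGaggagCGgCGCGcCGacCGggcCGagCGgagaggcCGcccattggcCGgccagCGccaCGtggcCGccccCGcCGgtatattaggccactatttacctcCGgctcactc
Both are rich in CpG, the dinucleotide typical of CpG islands, which are known as places where Polycomb complexes gather. HOXD13 has 21 CpG and a GC content of 74%, and HOXD1 has 31 CpG and 74.8%. RefSeq promoters were at hand for 20 of the 38 members. Their 26 different sequences had a median of 19.5 CpG in 250 bases (range 0 to 40). The median over 34788 promoter sequences of all genes was 11, and 18 of the 26 lay above it. Most of these sequences came from HOXA and HOXD, with several alternative starts of HOXA3. HOXB gave only HOXB1, and HOXC only HOXC4 and HOXC5. The core motifs of retinoic acid receptor elements, AGGTCA and AGTTCA, searched on both strands, were in 4 of the 26 (15.4%), HOXD13 among them, and in 19.7% of all promoter sequences.

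The clusters differed widely in how much of them the mark covered. H3K27me3 regions covered 95.8% of HOXA (113 of 118 kb), 80.4% of HOXB (162 of 201 kb), 44.3% of HOXC (52.3 of 118 kb) and 12.02% of HOXD (11.9 of 99 kb). The share over all chromosomes, up to the last listed region of each, was 2.82%. All 4 clusters thus lay above the level of the genome, with HOXA highest and HOXD lowest. Of the 10-kb bins lying wholly inside a cluster, 34 of 50 were at least 50% covered, namely 11 of 11 in HOXA, 17 of 19 in HOXB, 5 of 11 in HOXC and 1 of 9 in HOXD. Over all chromosomes, 1.47% of 10-kb bins were.

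**Figure D1:**
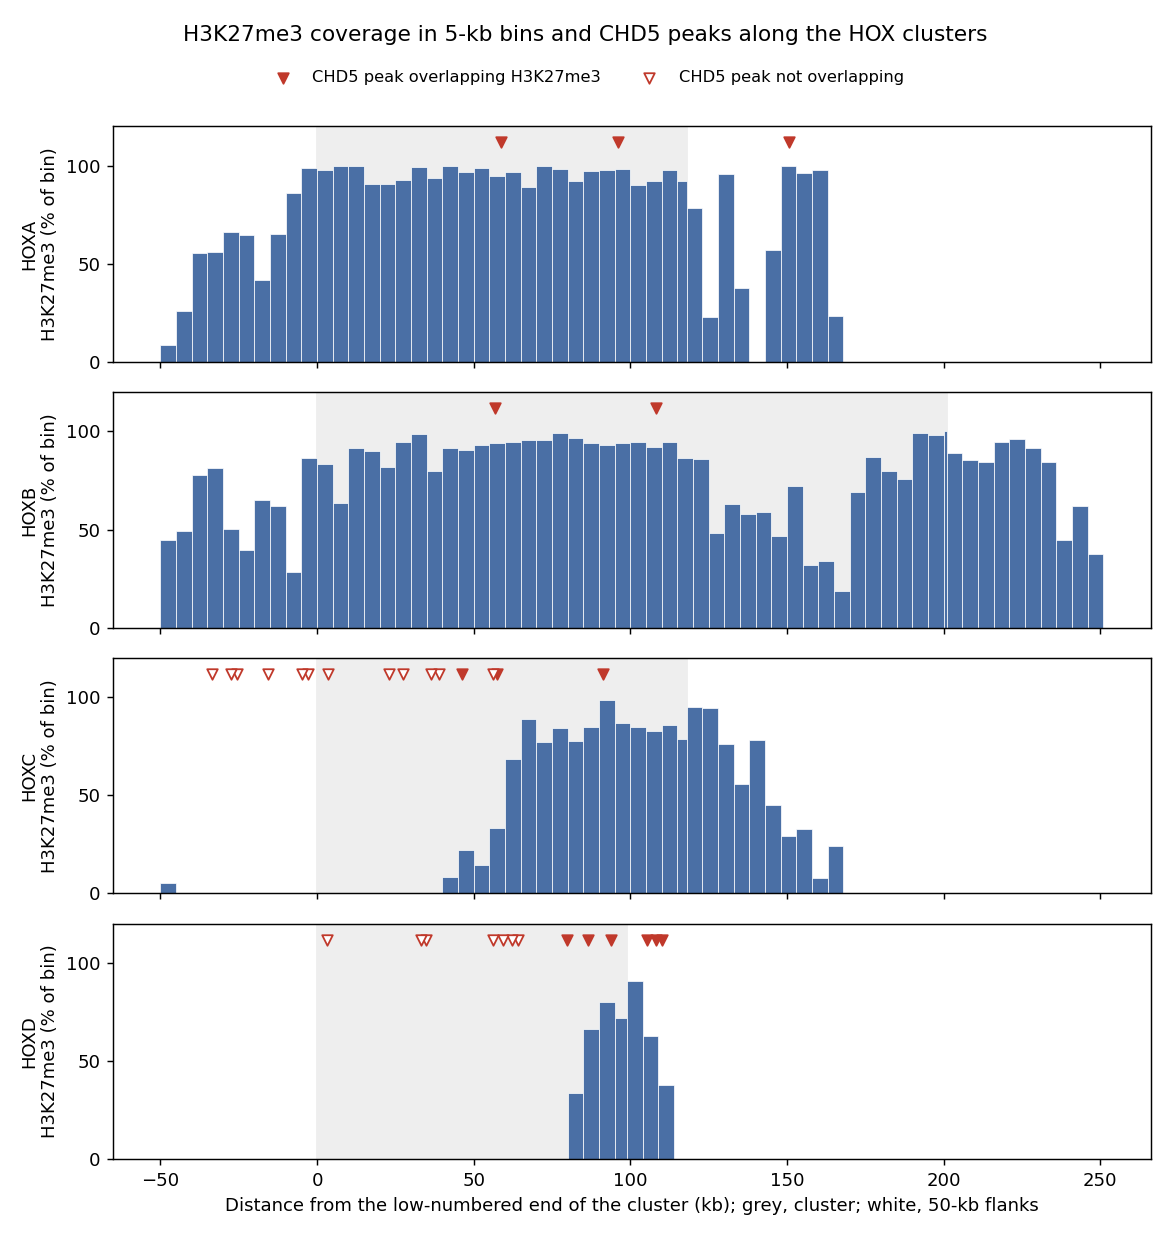
Bars give the percent of each 5-kb bin inside H3K27me3 regions, against the distance in kb from the low-numbered end of the cluster, with the cluster in grey and the 50-kb flanks in white. Triangles mark the midpoints of the 33 CHD5 peaks, filled for the 14 that overlap the mark. HOXA is filled from end to end, while HOXC and HOXD are marked only toward their high-numbered ends.

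The mark was spread differently along the clusters. HOXA was even, with 95.4%, 96.7% and 95.2% covered in its 3 segments of equal length, ordered from HOXA2 to HOXA13. Its 24 bins of 5 kb lay between 89.2% and 100% with a median of 97.2%. HOXB was covered at 88.6% and 88.3% in the low-numbered and middle segments, and at 64.2% in the segment next to HOXB13. The drop sat in a stretch from 125 to 170 kb from the HOXB1 end, where 5-kb bins held between 18.9% and 72.3%, and coverage was back at 98.4% to 100% in the last bins before the HOXB13 end. In RefSeq order HOXB9 and HOXB13 are separated by several non-coding genes and by PRAC1 and PRAC2. Whether the thinner stretch is that interval could not be read without an annotation of the build.

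HOXC and HOXD carried the mark on their high-numbered side. In HOXC the segment next to HOXC4 had 0%, the middle segment 47.7% and the segment next to HOXC13 85.3%. From the HOXC4 end, the 8 bins up to 40 kb were empty, the next 4 held 8.52%, 22.0%, 14.2% and 33.1%, and the bin starting at 60 kb held 68.4%. From there to the HOXC13 end the bins lay between 68.4% and 98.8%. The passage in HOXC from unmarked bins to bins covered at 68.4% or more thus lay from 40 to 60 kb. Unmarked here and below means without a listed region. In HOXD the segments from HOXD1 to HOXD13 had 0%, 0% and 36.1%, and 16 of its 20 bins were empty. The other 4, which began 80 kb from the HOXD1 end and reached the HOXD13 end, held 33.6%, 66.4%, 80.2% and 72.2%.

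**Figure D2:**
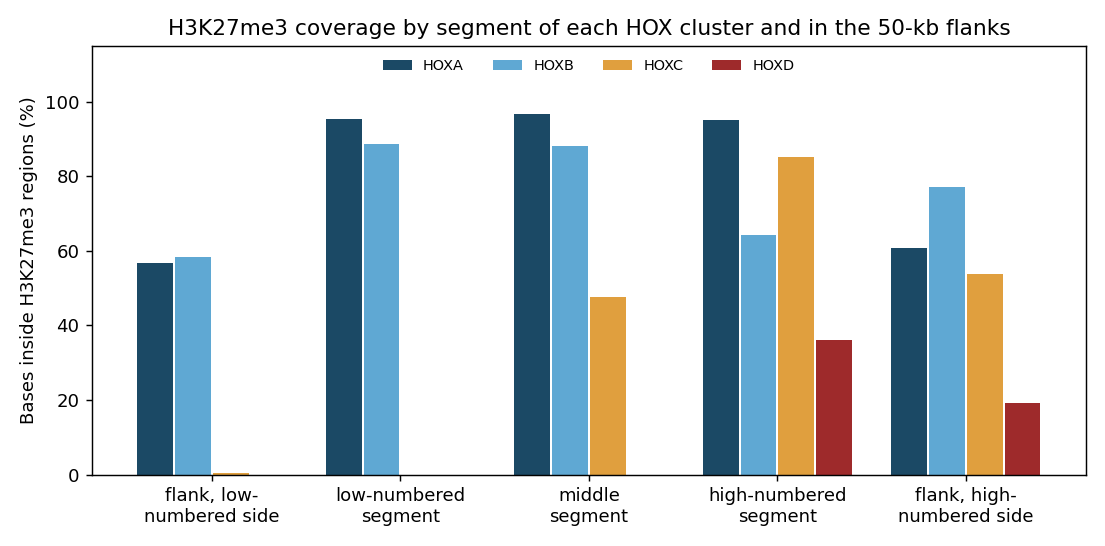
Bars give the percent of bases inside H3K27me3 regions in each of 3 equal segments of a cluster, ordered from the low-numbered to the high-numbered end, and in both 50-kb flanks, for 1 library. HOXC and HOXD have no bar in the low-numbered segment, and all 4 clusters have one in the high-numbered segment.

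Flanks were marked where the adjoining cluster end was marked, and nearly unmarked where it was not. On the low-numbered side the 50 kb outside HOXA and HOXB were covered at 56.8% and 58.5%, while those outside HOXC and HOXD were at 0.512% and 0%. On the high-numbered side the values were 60.9% for HOXA, 77.03% for HOXB, 53.9% for HOXC and 19.2% for HOXD. The adjoining segments inside the clusters had 95.2%, 64.2%, 85.3% and 36.1%, so these flanks did not keep the order of the segments. In RefSeq order the homeobox genes EVX1 and EVX2 lie on the high-numbered side, beyond HOXA13 and HOXD13 respectively. In HOXA the mark stopped and began again there: neighbouring bins beyond the cluster held 22.8% and 95.7%, the bin starting at 138 kb from the low-numbered end held 0%, and the next 4 held between 57.0% and 100%.

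Gaps inside the marked parts were short. HOXA had 55 unmarked stretches with a median of 47 bp, and the longest, from 27153356 to 27153801, was 446 bp, followed by 360 bp from 27235881 to 27236240 and 332 bp from 27200486 to 27200817. HOXB had 187 with a median of 87 bp, of which 21 were longer than 500 bp. Its longest ran over 4.77 kb, from 46769109 to 46773880, followed by 2.37 kb from 46750246 to 46752617 and 1.07 kb from 46748550 to 46749621, all in the thinner stretch. Medians in HOXC and HOXD were 128.5 and 124.5 bp, against 269 bp between neighbouring regions up to 3 kb apart over the whole list. HOXC had an unmarked stretch of 43.3 kb reaching its HOXC4 end, or 36.7% of the cluster, from 54406734 to 54450000. HOXD had one of 80.2 kb reaching its HOXD1 end, or 81.0% of the cluster, from 176975849 to 177056000. Next in length came 2.78 kb (54397995 to 54400773) and 2.40 kb (54401049 to 54403452) in HOXC, and 1.46 kb (176971465 to 176972925) and 0.972 kb (176957000 to 176957971, at the HOXD13 end) in HOXD. Thus HOXB, HOXC and HOXD each held 1 gap over 3 kb and HOXA held 0.

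Regions in the HOX clusters were wide and scored high within the H3K27me3 list. The score is the authors' own, given by their peak caller, and was used only within a list. Median scores were 1800 in HOXA, 318 in HOXB, 219 in HOXC and 137 in HOXD, where the list as a whole had 84.6. Median widths were 1612, 583.5, 429.5 and 325 bp, against 238 bp. In HOXA 23 of 55 regions were at least 2 kb wide, in HOXB 21 of 188, in HOXC 3 of 80 and in HOXD 1 of 27. Together these 48 regions were part of 1779 of that width in the list. The widest in HOXA, from 27201341 to 27209775, measured 8435 bp and ranked 47 in the list by width, followed by 7663 bp from 27162393 to 27170055 and 7375 bp from 27136076 to 27143450. All 3 scored 3100, a value that 313 regions of the list share. The highest score in HOXA, 3173, belonged to the region from 27229056 to 27232276.

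In HOXB the widest regions measured 3733 bp from 46780314 to 46784046, 3425 bp from 46699547 to 46702971 and 3262 bp from 46680070 to 46683331. Its highest score, 3136, was at 46795578 to 46798773, near the HOXB13 end. In HOXC the widest region was also the highest in score, with 2506 bp and 2184 from 54357002 to 54359507, ahead of 2411 bp from 54337139 to 54339549 and 2102 bp from 54383180 to 54385281. The same held in HOXD, with 2244 bp and a score of 1697 from 176957972 to 176960215, next to the HOXD13 end. The following regions there had 1210 bp, from 176963423 to 176964632, and 659 bp, from 176965572 to 176966230. The region of 2244 bp ranked 1382 by width in the whole list.

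Regions up to 3 kb apart were then joined into domains, which gave 38537 over the genome. A domain of 168 kb from 27087073 to 27254910 held the whole HOXA cluster and ranked 16 by width. It reached 44.9 kb beyond the low-numbered end and 4.91 kb beyond the HOXA13 end. HOXB was split by its 4.77-kb gap between domains of 236 kb, from 46533318 to 46769108, and 122 kb, from 46773881 to 46896037. They ranked 2 and 49, and reached 72.7 kb beyond the HOXB1 end and 89.04 kb beyond the HOXB13 end, respectively. Their ranks thus describe more than the cluster. The HOXC domain of 113 kb, from 54293801 to 54406733, ranked 56 and left out 43.3 kb on the HOXC4 side while reaching 38.2 kb beyond the HOXC13 end. The HOXD domain of 32.6 kb, from 176943252 to 176975848, ranked 975 and reached 13.7 kb beyond the HOXD13 end.

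Joined domains differ in how much of them is really covered. The HOXA domain was filled to 86.3%, the HOXB domains to 74.3% and 79.9%, the HOXC domain to 68.7% and the HOXD domain to 65.9%. Domains of at least 30 kb had a median of 50.8% over 1133 domains, and the 422 of at least 50 kb had 56.4%. All 5 HOX domains lay above both medians. Among the domains of at least 50 kb, 19 were filled more than that of HOXA.

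**Figure D3:**
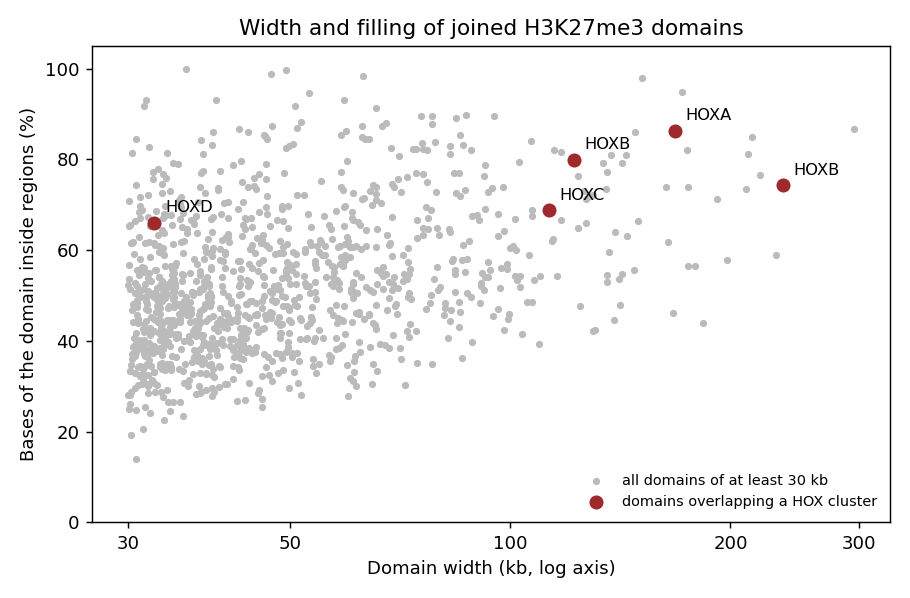
Each point is a joined H3K27me3 domain of at least 30 kb, by its width in kb (log axis) and the percent of its bases inside regions. The 5 domains overlapping HOX clusters, in red, have fillings from 65.9% to 86.3%, above the median of 50.8% of the plotted domains.

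By covered share, the chromosomes that carry the clusters stood in the same order as the clusters. H3K27me3 covered 6.80% of chromosome 7 with a median region width of 351 bp, and 4.23% of chromosome 17 with 262 bp. It covered 3.02% of chromosome 12 with 227 bp and 1.79% of chromosome 2 with 239 bp. SH-SY5Y is known to carry extra copies of chromosome 7 and of part of the long arm of chromosome 17, and copy number was not measured here. The part of these chromosome-wide levels in the order of the clusters was not tested.

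CHD5 peaks were few in HOXA and HOXB and more numerous in HOXC and HOXD, the 2 clusters covered less. Inside the clusters there were 2 peaks in HOXA, 2 in HOXB, 9 in HOXC and 10 in HOXD. With only scores at or above the list median, 0, 0, 5 and 4 were left, so HOXD was no longer above HOXC. With all listed peaks, the density per 100 kb was 1.69 in HOXA (exact Poisson 95% interval 0.205 to 6.12) and 0.995 in HOXB (0.121 to 3.59). It was 7.63 in HOXC (3.49 to 14.5) and 10.1 in HOXD (4.84 to 18.6). The level over all chromosomes was 1.05 per 100 kb. It lay inside the intervals of HOXA and HOXB and below those of HOXC and HOXD, which cover counting error only and treat peaks as independent. Some neighbouring peaks in HOXC and HOXD were only a few bases apart and were counted separately. Examples are 54409497 to 54412948 with 54412976 to 54414343, and 176990708 to 176992870 with 176992884 to 176994392. Of the 10-kb bins, CHD5 lay in 3 of 11 in HOXA, 2 of 19 in HOXB, 6 of 11 in HOXC and 5 of 9 in HOXD, against 10.6% of all bins. Density along the carrying chromosomes did not follow this order, with 1.42 peaks per 100 kb on chromosome 7, 1.99 on 17, 1.14 on 12 and 1.25 on 2.

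In HOXA, the peaks lay from 27189711 to 27191600, with a score of 86.2, and from 27227717 to 27228660, with 52.9. The flank beyond HOXA13 had another, from 27281963 to 27283058, with 56.9. In HOXB they lay from 46662363 to 46663305, with 65.4, and from 46713830 to 46714798, with 52.6, and the flanks held 0. All 5 peaks scored under the list median of 117, and 4 of them were at least 97.1% inside H3K27me3. The other, the highest in score, was 93.7% inside. The mark regions they touched reached scores between 959 and 3100.

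The HOXC peaks formed a row that ran out of the cluster on the HOXC4 side. Within the 43.3 kb without listed H3K27me3 regions, the peak from 54409497 to 54412948 scored 525 and was 3452 bp wide. It stood 2.76 kb outside the end of the listed mark. It was followed toward the HOXC4 end by peaks from 54412976 to 54414343, 54421944 to 54423035, 54426255 to 54427483 and 54445206 to 54447895, with scores of 133, 106, 130 and 273. Another 6 peaks lay in the adjoining flank, where scores of 486, 59.03, 275, 101.5, 54.2 and 715 were met at 54451090 to 54454397, 54454482 to 54455232, 54464815 to 54466697, 54475065 to 54476144, 54476599 to 54478319 and 54481519 to 54485650. The last stood above 97.6% of all CHD5 peaks. None of these 11 peaks overlapped the mark.

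Inside the HOXC domain there were 4 peaks, in places where the mark was thin in 3 of the cases. The peaks from 54391577 to 54393234, with a score of 149, and from 54403330 to 54404237, with 65.8, were 65.4% and 72.1% inside the mark and touched regions scoring at most 198. The peak from 54393270 to 54394446, with a score of 50.2, fell into a gap and lay 0.152 kb from the nearest region. The peak from 54358161 to 54359201, with 53.7, was the exception: it lay wholly inside the widest and highest-scoring H3K27me3 region of the cluster. No CHD5 peak was listed in the 50 kb beyond HOXC13.

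HOXD had CHD5 on both sides of the end of the mark. In the 80.2 kb without listed H3K27me3 regions there were 7 peaks that did not touch a region. They lay from 176990708 to 176992870 with a score of 299, 176992884 to 176994392 with 77.4, 176996026 to 176996933 with 55.5, 176998192 to 177001288 with 398, 177020730 to 177021957 with 77.2, 177022182 to 177023569 with 69.4, and 177052051 to 177053417 with 88.2. The last was 3.27 kb from the HOXD1 end. The scores of 299 and 398 stood out, and the others were below the list median.

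The peak from 176975213 to 176977152, with a score of 196, straddled the end of the HOXD domain and was 19.6% inside the mark. Within the domain followed peaks from 176968832 to 176969982 with 65.01 and from 176961166 to 176962852 with 155, which were 68.8% and 69.7% inside. The flank beyond HOXD13 held 3 more, from 176950292 to 176951326 with 98.3, 176947171 to 176948554 with 70.9 and 176945301 to 176946613 with 83.55. These were 38.6%, 90.2% and 90.3% inside the mark.

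**Figure D4:**
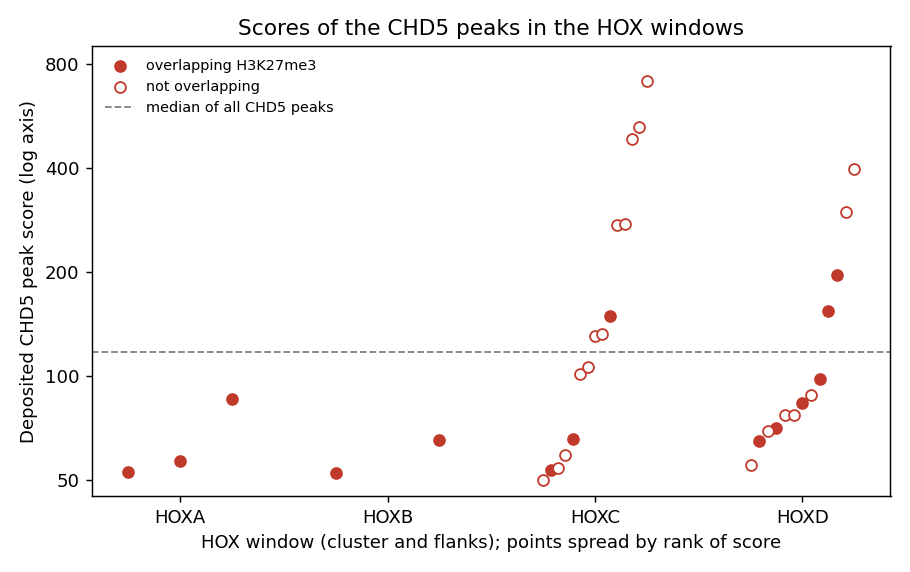
Each point is a CHD5 peak of a HOX window, with its deposited score on a log axis, filled where it overlaps H3K27me3. The 5 peaks of HOXA and HOXB lie under the median of all CHD5 peaks (117, dashed), and the 7 highest scores belong to HOXC and HOXD peaks that do not overlap the mark.

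Over the 4 windows, 14 of 33 CHD5 peaks overlapped H3K27me3, or 42.4% (Wilson 95% interval 27.2% to 59.2%), while 2.19% of all CHD5 peaks did. The interval covers counting error only and can be too narrow, since many of these peaks lie next to each other in 1 library. The windows were themselves 53.6% covered by the mark. By cluster the overlapping peaks were 3 of 3 in the HOXA window, 2 of 2 in HOXB, 3 of 15 in HOXC and 6 of 13 in HOXD. The 14 had a median score of 68.4 (range 52.6 to 196) and the 19 others 106 (50.2 to 715), and the ranges overlapped. Above the list median lay 3 of the 14 and 9 of the 19. The median share of an overlapping peak within the mark was 90.3% in the HOX windows, where that of all overlapping CHD5 peaks was 29.3%. H3K27me3 regions were also wider in the clusters, with medians from 325 bp (HOXD) to 1612 bp (HOXA) against 238 bp in the list. The part of this width in the higher share was not tested. Of the 14, 8 were at least 90% inside. The other 6, down to 19.6%, all lay in the HOXC and HOXD windows.

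Density inside and outside the joined domains went opposite ways in the 2 clusters that had both. In the HOXC window there were 3.23 CHD5 peaks per 100 kb inside domains (4 peaks in 124 kb) and 11.7 outside (11 in 94.3 kb). In the HOXD window there were 18.4 inside (6 peaks in 32.6 kb) and 4.21 outside (7 in 166 kb). These counts are small, and the difference between the clusters was not tested. In HOXA and HOXB, domains made up 91.1% and 98.4% of the windows and held all of their peaks.

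CHD5 stood close to some ends of the HOX domains, a measure chosen after the values were seen. Of the 10 ends, 4 had a CHD5 peak within 3 kb, while 1.98% of the ends of all domains of at least 10 kb did. They were the end toward HOXC4, both ends of the HOXD domain, and the far end of the second HOXB domain at 46896037, which a peak from 46895716 to 46897306 with a score of 99.5 straddled outside the window. The ends of the HOXA domain had their nearest CHD5 peak 89.3 and 26.3 kb away. The share over all ends was not matched for CHD5 density, which was 7.63 peaks per 100 kb in HOXC and 10.1 in HOXD. Over all chromosomes the density was 1.05. The position of the end toward HOXC4 also depends on the joining distance, since gaps of 2.78 and 2.40 kb lie just inside it.

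Farther out, CHD5 peaks were numerous on the low-numbered side of HOXC and HOXD, but at different distances. Beyond HOXC4 there were 6 peaks in the first 50 kb, 18 in 200 kb and 29 in 500 kb, where H3K27me3 covered 11.1% and no peak overlapped it. Beyond HOXD1 there were 0 in 100 kb, 1 in 200 kb and 24 in 500 kb, without any H3K27me3 region. The same 500 kb held 8 peaks each for HOXA and HOXB, with 44.8% and 57.4% covered. On the high-numbered side the 500-kb counts were 7 for HOXA, 6 for HOXB, 7 for HOXC and 8 for HOXD.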

How the data were processed

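Region lists from 2 ChIP-seq libraries of SH-SY5Y cells were used, 1 for the CHD5 pull-down and 1 for H3K27me3. Per the file headers, the lists are MACS peaks for FBio-CHD5 and for H3K27me3, and hg19 is the build in the submitters' processing notes. The sample labels give 1 library for each. How MACS was set, what it took as background and how reads were aligned is not given in the sources used here. A list called without a matched control also holds places that capture well, and narrow calls split a broad mark. The score of each region was deposited by the authors without its scale, with a smallest value of 50 in both lists, and served only for ranks within a list. Depth is unknown.

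Cluster bounds are those of the opening, given to the nearest kb. Members, lists and measures were chosen with earlier results of these data known. Positions are counted from 1, overlap means at least 1 shared bp, and domains join regions up to 3 kb apart. Bins were 5 kb along clusters and 10 kb over all chromosomes, unassembled sequence included. Named positions are every CHD5 peak of the windows, and per cluster the 3 widest and the highest-scoring H3K27me3 regions, the 3 longest gaps and every domain of at least 10 kb. Routines were tested on 50 simulated interval sets against a base-by-base count, with 0 disagreements, and bedtools 2.31.1 gave the same 712 overlapping CHD5 peaks. Wilson and Poisson 95% intervals came from scipy 1.17.1, with Python 3.11.15, pandas 2.3.3, numpy 2.4.6 and matplotlib 3.10.9. With 1 library per group no test was run. Alternatives covered score and width limits, joining, flank width and overlap. Gene bodies and start sites were not analysed here, since the annotation at hand is of another build.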

Additional observations from a re-analysis of the deposited data

How the results depend on the processing

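The order of the clusters by covered share was HOXA, HOXB, HOXC and HOXD under each alternative run. Regions scoring at or above the list median covered 95.03%, 77.7%, 42.01% and 10.3% of them, and those at or above the upper quartile 94.6%, 74.5%, 39.1% and 8.66%. Joined domains covered 100%, 97.6%, 63.3% and 19.04%. The longest gap went to 0.546, 5.83 and 45.7 kb in HOXA, HOXB and HOXC with the median score as limit, and to 0.604, 6.09 and 45.7 kb without regions under the median width, while HOXD kept 80.2 kb in both. Domain width depended most on joining. Across 1 kb the widest domain was 139 kb for HOXA, 149 kb for HOXB, 90.01 kb for HOXC and 26.1 kb for HOXD. Across 5 kb it was 207, 694 and 132 kb for the first 3, and across 10 kb 242, 694 and 275 kb, with 32.6 kb for HOXD in both. With the median score as limit it was 166, 204, 92.6 and 32.4 kb.

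CHD5 counts inside clusters were the same by peak midpoint. With CHD5 scores at or above the list median, 0 peaks stayed inside HOXA, 0 inside HOXB, 5 inside HOXC and 4 inside HOXD, and 0, 0, 3 and 0 in their flanks. Flanks of 25 kb held 0 peaks at HOXA and 3 at HOXC, and flanks of 100 kb held 2 at HOXB and 9 at HOXC. The 14 overlapping peaks of the windows became 13 with at least 25% of the peak inside the mark, 12 with 50%, and 15 with joined domains. Lower counts under a score limit follow from the fewer peaks it leaves. For the other values the cause was not tested beyond the construction of each alternative. No paired analysis was possible because each group has 1 library. Unknown depth limits what an unlisted stretch means: absence from a list is no measure of absence of the mark or of CHD5.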
